A study of Mus musculus with 27 samples.

Results

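Cadherins and protocadherins were followed across the mRNA-seq libraries of J1 mouse embryonic stem cells (mESCs) depleted of Gas41, and of embryoid bodies (EBs) grown from J1 cells. Members were the rows of the 3 deposited gene tables with a symbol made of Cdh and a number, or beginning with Pcdh. That rule gave 60 of the 27080 genes listed, and 56 of the 60 were listed in all 3 tables. They fell into 18 classical cadherins (5 of type I and 13 of type II), 5 other cadherins, 12 non-clustered protocadherins and 25 rows of the clustered protocadherins.

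All cells were J1, an mESC line, cultured without feeders in serum and leukemia inhibitory factor (LIF). The control group shNT (labelled shCon, 3 libraries) carried a control lentiviral vector, and shGas41-1 (3 libraries) and shGas41-2 (2 libraries) carried independent short hairpin RNAs against Gas41, which is encoded by Yeats4. The labels give a harvest 8 days after infection, following drug selection, so each knockdown (KD) library is a bulk population rather than a clone. EB day 0 (2 libraries) was control-vector J1 cells kept in LIF on gelatin, and EB day 6 (2 libraries) was control-vector cells grown as aggregates in low-attachment wells without LIF. The control vector was therefore shared by shNT and both EB groups, but the libraries were different ones.

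Classical cadherins are calcium-dependent adhesion receptors: their extracellular repeats bind cadherins on the next cell, and their cytoplasmic tails bind β-catenin and p120-catenin and so link to actin through α-catenin. E-cadherin (Cdh1) holds mESCs together in compact colonies, and its exchange for N-cadherin (Cdh2) accompanies the epithelial to mesenchymal transition of cells leaving the primitive streak. Protocadherins lack catenin-binding tails. The non-clustered δ-protocadherins are scattered over the genome, whereas the α, β and γ protocadherins lie in tandem arrays on chromosome 18. In the α and γ arrays a neuron chooses among alternative first exons.

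Total counts ranged from 59224537 to 81524773 per library, so that 3 counts, used as the detection floor, equalled 0.0368 to 0.0507 CPM (counts scaled to library size). Yeats4 was at 51.3 to 61.1 CPM in shNT, 3.46 to 5.07 in shGas41-1 and 7.97 to 8.81 in shGas41-2. shGas41-1 replicate 3 stood apart: its chi-square against the other replicates of its group was 134 and 219 per degree of freedom, against 27.3 to 75.9 for all other replicate pairs. Beside the KD results below, the 6 undifferentiated ESC markers summed to 4350 to 5350 CPM in all mESC libraries; 2 of 6 (Esrrb and Klf4) were lower with shGas41-1 and none was with shGas41-2. Among markers of other lineages Gata3 was higher with both shRNAs, whereas Cdx2, Gata6 and Pax6 were higher, and Eomes lower, past the threshold with shGas41-1. The trophoblast list, which holds Gata3 and Cdx2, did not rise as a whole. Tfap2c, its most abundant gene, passed the FDR as lower with shGas41-1 (−0.63, under 2-fold). Summed, the list was at 27.1 CPM or less in every KD library and at 28.9 CPM or more in every shNT library. At EB day 6 all 4 mesoderm and primitive streak markers and all 4 endoderm markers were higher, with summed levels of 1258 to 1803 CPM against 7.06 to 7.77 and of 60.0 to 154 CPM against 2.09 to 3.18 at day 0, and 5 of 6 ESC markers were lower. The part of these shifts in the results on cadherins was not tested, and in bulk RNA more cells of a type cannot be told apart from more RNA per cell. Nothing in the labels says that replicates came from separate cultures, so p-values measure only the spread between these libraries.

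In undifferentiated cells E-cadherin dominated. Cdh1 (chr8:109127251-109194146, plus strand, mm9) was at 284, 317 and 380 CPM in shNT and made up 67.2% to 71.5% of all member counts in the 10 mESC libraries. Per kilobase of the union of a gene's exons, the shNT mean was 71.5 CPM per kb for Cdh1, 5.53 for P-cadherin (Cdh3), 3.61 for the row of the γ protocadherin cluster, 1.12 for Pcdh1 and 0.914 for Cdh24. The ranges of Pcdh1 and Cdh24 overlapped between libraries, whereas each of the first 3 lay apart from the next below it. The place of the γ row depends on the length used, since it pools 10 transcripts: per kilobase of the longest transcript it was at 18.1 CPM per kb against 5.55 for Cdh3, which turns their order. R-cadherin (Cdh4), Pcdhb17 and N-cadherin followed at 0.281, 0.250 and 0.241 CPM per kb with overlapping ranges. Only 7 of the 60 members had a mean of 1 CPM or more in shNT, against 13 with shGas41-1, 8 at EB day 0, 20 at EB day 6 and 10 with shGas41-2.

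**Figure D1:**
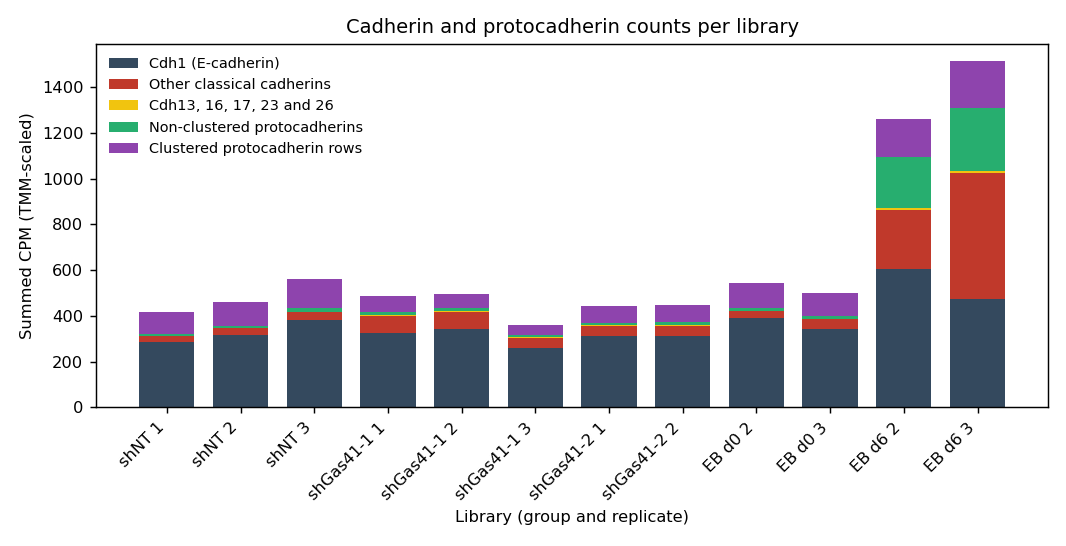
Summed CPM of the members (vertical axis, TMM-scaled) in each of the 12 libraries (horizontal axis), stacked by family with Cdh1 apart. The 10 mESC libraries sum to between 362 and 560 CPM, and the EB day 6 libraries reach 1262 and 1513 CPM.

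**Figure D2:**
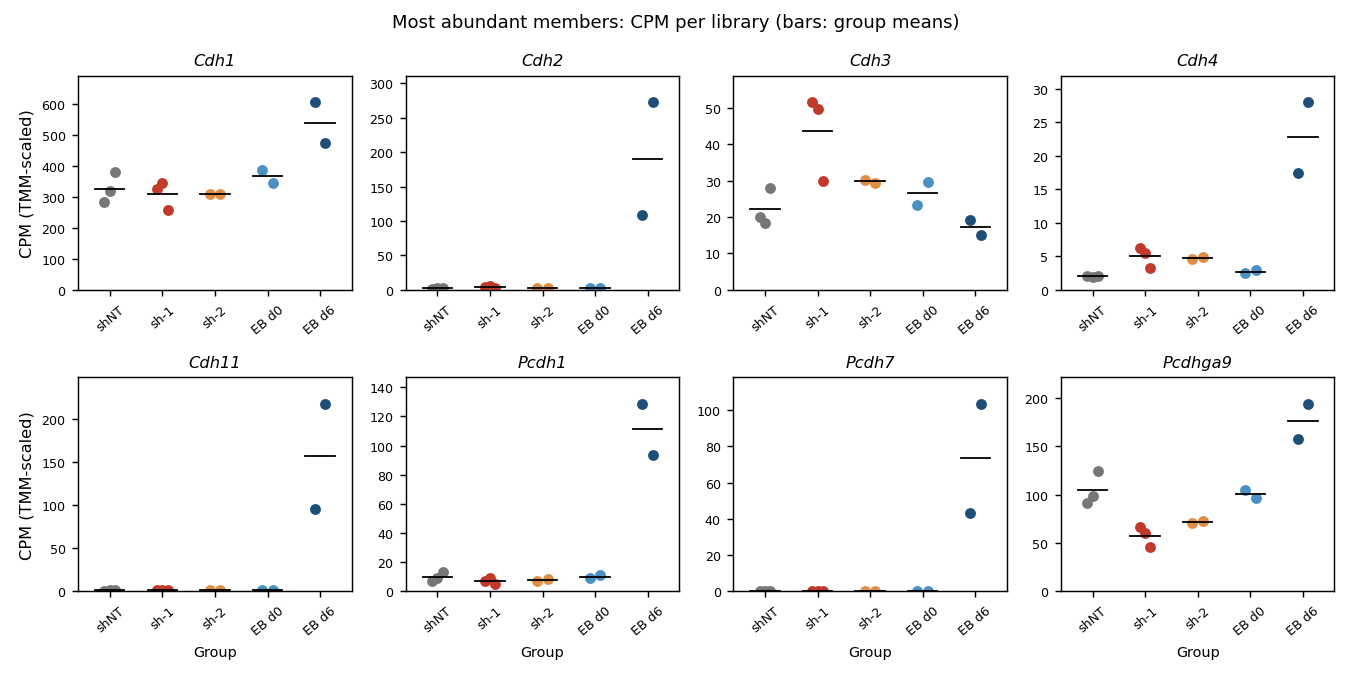
CPM per library (points) and group mean (bars) for 8 abundant members in shNT, shGas41-1 (sh-1), shGas41-2 (sh-2), EB day 0 and EB day 6; each panel has its own linear axis from 0. Cdh1 stays between 258 and 605 CPM throughout, whereas Cdh2, Cdh11, Pcdh1 and Pcdh7 stand out at EB day 6.

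To ask how the family responded to loss of Gas41, each shRNA was compared with shNT. A gene was called when it differed 2-fold or more with a false discovery rate (FDR) of 0.05 or less in edgeR's quasi-likelihood test over all genes. Of the 60 members, 28 passed the filter on low counts with shGas41-1, and 11 of these were called higher and 1 lower. Over all 18274 genes tested, 7.9% were called higher and 2.4% lower. With shGas41-2, which shares the shNT libraries, 28 members were tested, 8 were called higher and none lower by edgeR. In the lower direction 2 members (Pcdhb14 and the γ cluster row) had an unadjusted p under 0.05, and DESeq2 called 0. Over all 18405 genes, 3.96% were higher and 0.869% lower. All 8 members called with shGas41-2 were among the 11 called with shGas41-1: Cdh4, Cdh5, Cdh9, Cdh13, Cdh17, Pcdh8, Pcdh10 and Pcdh17. The median log2 fold change of the tested members was 1.00 with shGas41-1 and 0.51 with shGas41-2, against 0.02 and −0.01 over all genes. The filter keeps a gene with enough counts in 1 group alone. Cdh6 (with shGas41-1), Cdh13 and Pcdh10, for example, entered through KD libraries and could hardly be called lower. The shares and medians of tested members are thus partly set by this filter, which all genes tested also passed. Every KD library lay above every shNT library for 16 of the 28 tested members with shGas41-1 (20.8% of all genes) and for 14 of 28 with shGas41-2 (23.3%). The 32 members that did not pass the filter reached at most 16 counts (Pcdhb18) in any library of the first comparison and 20 (Cdh20) in the second.

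**Figure D3:**
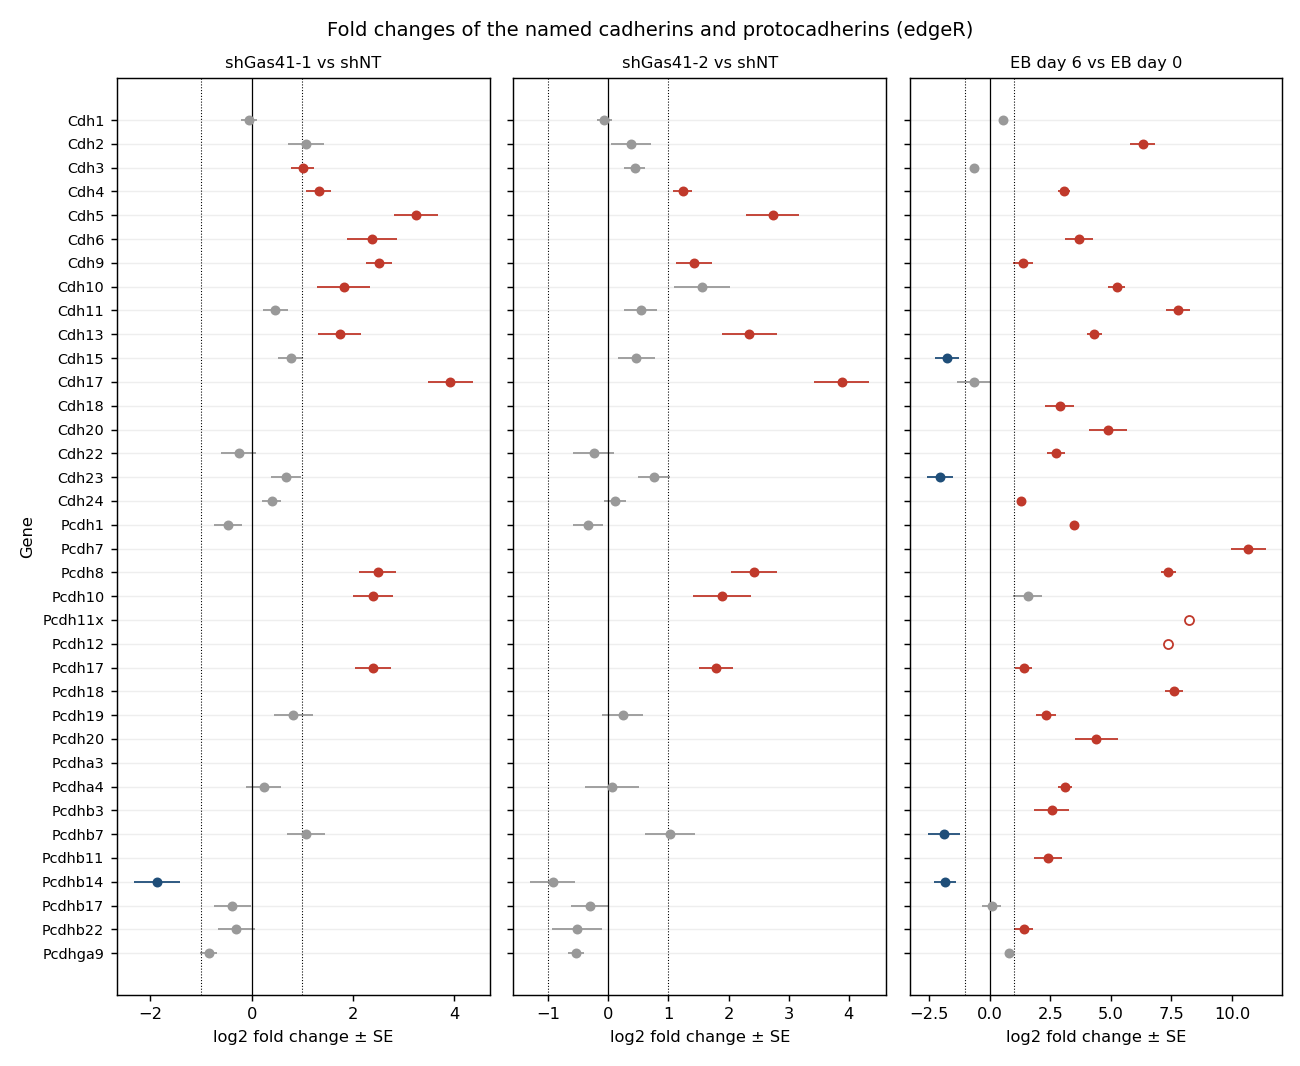
log2 fold change (points) with its standard error (SE, bars) from edgeR for the named members in the 3 comparisons, each on its own axis. Red points were called higher, blue points lower and grey points neither; open points are fits against EB day 0 libraries at 0 counts, whose size depends on the prior count, and empty rows did not pass the filter.

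E-cadherin itself did not differ detectably after Gas41 KD. Cdh1 was at 326, 344 and 258 CPM with shGas41-1 and 310 and 311 CPM with shGas41-2, within the 284 to 380 CPM of shNT except for shGas41-1 replicate 3. Its log2 fold change was −0.05 ± 0.15 (SE, FDR = 0.83) and −0.07 ± 0.12 (FDR = 0.76). P-cadherin, whose gene lies 46.4 kb before Cdh1 on the same strand, was at 20.0, 18.4 and 27.9 CPM in shNT and at 51.6, 49.7 and 30.0 CPM with shGas41-1. All shGas41-1 libraries lay above shNT, replicate 3 by the least, and the change was called at 1.01 ± 0.23 (FDR = 0.019), next to the 2-fold threshold. It was not called without shGas41-1 replicate 1 or 2 or shNT replicate 1 or 2 (0.88 to 0.95). Nor was it called with library size alone, a replicate block, no filter on low counts, or a test against a 2-fold change (glmTreat). With shGas41-2 Cdh3 was at 30.3 and 29.3 CPM, again above all shNT libraries, with 0.44 ± 0.17 (FDR = 0.14). In the EB day 0 libraries, also undifferentiated control cells, Cdh3 was at 23.4 and 29.7 CPM. The higher of these lay within the shGas41-2 range. Relative to Cdh1 per kilobase, Cdh3 stood at 6.65% to 8.41% in shNT, 13.3% to 18.1% with shGas41-1 and 10.8% to 11.2% with shGas41-2. At EB day 0 this ratio was 6.90% and 9.89%.

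R-cadherin, a type I cadherin of brain, muscle and kidney, was the type I member called with both shRNAs. Cdh4 was at 2.01, 1.95 and 2.12 CPM in shNT, at 6.28, 5.48 and 3.22 CPM with shGas41-1 and at 4.64 and 4.88 CPM with shGas41-2. Neither KD group overlapped shNT, the shGas41-2 values lay within the shGas41-1 range, and the changes were 1.33 ± 0.25 (FDR = 0.0095) and 1.24 ± 0.16 (FDR = 0.0043); the second missed the threshold without shGas41-2 replicate 2 (1.20, FDR = 0.053). N-cadherin was at 1.24, 2.64 and 1.94 CPM in shNT and at 3.75, 5.86 and 2.43 CPM with shGas41-1, where replicate 3 lay within the shNT range. Its difference of 1.07 ± 0.36 missed the threshold (FDR = 0.071), and Cdh2 was called when shGas41-1 replicate 3 was left out (1.31, FDR = 0.026) and by DESeq2 (1.06, FDR = 0.018). With shGas41-2 it was at 1.92 and 3.11 CPM (0.38 ± 0.34, FDR = 0.50). M-cadherin (Cdh15), the myoblast cadherin, was at 0.368 to 0.448 CPM in shNT, 0.654 to 0.738 with shGas41-1 and 0.506 to 0.647 with shGas41-2, and was not called (FDR = 0.067 and 0.35).

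Among the type II cadherins 4 of 8 tested were called higher with shGas41-1 and 2 of 7 with shGas41-2. Over all genes tested the shares were 7.9% and 3.96%. Of those called, Cdh5, Cdh6 and Cdh10 passed the filter only with their KD counts and could hardly have been called lower. VE-cadherin (Cdh5), the junctional cadherin of endothelium, was at 0.131, 0.156 and 0.0815 CPM in shNT, which is 6 to 11 counts a library. It was at 1.21, 1.56 and 0.654 CPM with shGas41-1 and at 0.560 and 1.08 CPM with shGas41-2, above shNT in every KD library. The changes were 3.24 ± 0.43 (9.44-fold, FDR = 0.0031) and 2.74 ± 0.44 (6.66-fold, FDR = 0.011), and the second was lost without shGas41-2 replicate 2 (2.19, FDR = 0.12). Of the other endothelial markers, none of the 3 tested of 4 (Pecam1, Kdr and Tek) was called with either shRNA, although Tek passed the FDR with shGas41-2 (−0.90, FDR = 0.036). Their summed level was 44.8 to 59.3 CPM in shNT, 51.4 to 71.2 with shGas41-1 and 61.0 to 67.0 with shGas41-2, and their part in the Cdh5 result was not tested. Cdh9, a synaptic type II cadherin, was at 0.375, 0.255 and 0.340 CPM in shNT, at 2.07, 1.81 and 1.55 CPM with shGas41-1 and at 0.884 and 0.843 CPM with shGas41-2. The 3 groups did not overlap, and the changes were 2.51 ± 0.26 (5.69-fold, FDR = 0.0022) and 1.43 ± 0.30 (2.69-fold, FDR = 0.026). The second was lost without either shGas41-2 library or without shNT replicate 2 (1.28 to 1.46, FDR = 0.093 to 0.18).

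Cdh6, a cadherin of the kidney and neural crest, and Cdh10, a cadherin of brain, were called with shGas41-1 alone. Cdh6 had 1, 6 and 7 counts in shNT against 24, 26 and 25, a difference of 2.38 ± 0.50 (FDR = 0.013); its 14 and 10 counts with shGas41-2 did not pass the filter. Cdh10 was at 0.0653 to 0.170 CPM in shNT and at 0.500, 0.521 and 0.180 CPM with shGas41-1 (1.81 ± 0.52, FDR = 0.041), with replicate 3 close to the highest shNT library. Leaving out any library other than that replicate ended the Cdh10 call (1.56 to 2.20, FDR = 0.070 to 0.13), as did library size alone and a replicate block. With shGas41-2 Cdh10 was at 0.373 and 0.311 CPM (1.56 ± 0.47, FDR = 0.073). Cdh11, Cdh22 and Cdh24 were not called with either shRNA, with log2 fold changes between −0.26 and 0.54. Cdh7, named here after its values were seen, had 12, 7 and 0 counts in shNT, 25, 20 and 28 with shGas41-1 (1.87, FDR = 0.11) and 11 and 14 with shGas41-2. It was not called either, except with shGas41-1 when shNT replicate 1 was left out.

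The largest KD change in the family was that of Cdh17, or LI-cadherin, an atypical seven-repeat cadherin of the intestinal epithelium. Cdh17 (chr4:11685294-11745042, plus strand, mm9) had 21, 15 and 5 counts in shNT, 239, 279 and 152 with shGas41-1 and 214 and 257 with shGas41-2. In CPM this was 0.343, 0.212 and 0.0679, then 3.15, 3.55 and 2.48, then 2.66 and 3.33, so every KD library was far above every control. The log2 fold change was 3.92 ± 0.44 (15.2-fold, FDR = 0.0025) with shGas41-1 and 3.88 ± 0.45 (14.7-fold, FDR = 0.0031) with shGas41-2. It was the only one of the 8 shGas41-2 calls that held whichever of the 5 libraries was left out (3.45 to 4.43). Beside it, Cdx2, a trophectoderm and intestinal transcription factor, was at 0.22 CPM in shNT, 1.20 with shGas41-1 (2.50, FDR = 0.0078) and 0.74 with shGas41-2 (1.79, FDR = 0.068) as group means, and its part was not tested. Tfap2c, of the same trophoblast list, went the other way with shGas41-1 (−0.63).

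T-cadherin (Cdh13), which is held in the membrane by a lipid anchor and has no cytoplasmic tail, was also called with both shRNAs. It was at 0.0653, 0.113 and 0.0951 CPM in shNT, 0.408, 0.293 and 0.212 CPM with shGas41-1 and 0.349 and 0.596 CPM with shGas41-2. Neither KD group overlapped shNT, and they overlapped each other (1.74 ± 0.43, FDR = 0.023, and 2.35 ± 0.45, FDR = 0.020). The first call was lost with a replicate block and without shGas41-1 replicate 1 or any single shNT replicate (1.48 to 1.91, FDR = 0.065 to 0.097), and the second without either shGas41-2 library or shNT replicate 2 (1.91 to 2.68, FDR = 0.056 to 0.20). Cdh13 was at 0.240 and 0.424 CPM in the EB day 0 libraries, which are also undifferentiated control cells, within the range of the KD libraries. Cdh23, a component of the tip links of hair cells, and Cdh26 were tested and not called.

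**Figure D4:**
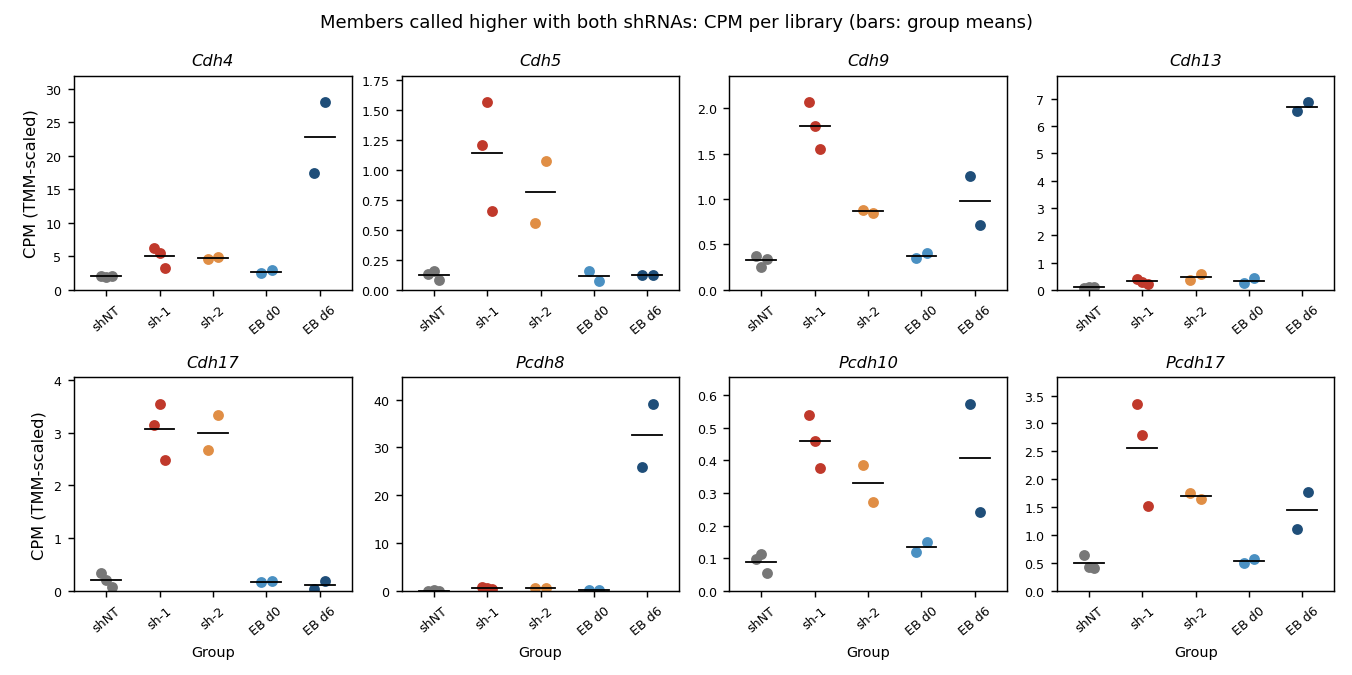
CPM per library (points) and group mean (bars) for the 8 members called higher with both shRNAs, in the same 5 groups; each panel has its own linear axis from 0. Cdh5 and Cdh17 are at 0.560 CPM or more in every KD library and at 0.343 CPM or less everywhere else, whereas Cdh4, Cdh13 and Pcdh8 are highest at EB day 6.

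Of the 12 non-clustered protocadherins 5 passed the filter in each KD comparison, and the same 3, all of the δ-2 group, were called higher. Among these, Pcdh8 and Pcdh10 passed the filter only with their KD counts and could hardly have been called lower. Members of the δ-2 group carry conserved cytoplasmic motifs, including one that binds the WAVE complex that regulates actin. Pcdh8 (paraxial protocadherin), which acts in convergent extension and somite formation, was at 0.0980, 0.141 and 0.0815 CPM in shNT, 0.737, 0.560 and 0.490 CPM with shGas41-1 and 0.598 and 0.558 CPM with shGas41-2. No KD library overlapped shNT, whereas the KD groups overlapped each other, and the changes were 2.49 ± 0.37 (5.60-fold, FDR = 0.0037) and 2.42 ± 0.39 (5.36-fold, FDR = 0.010). Pcdh10, first described in the olfactory system, was at 0.0980, 0.113 and 0.0543 CPM, then 0.540, 0.458 and 0.376 CPM, then 0.386 and 0.272 CPM (2.39 ± 0.40, FDR = 0.0056, and 1.89 ± 0.48, FDR = 0.046). Pcdh17, an axonal and synaptic protocadherin, was at 0.653, 0.424 and 0.408 CPM, then 3.36, 2.79 and 1.52 CPM, then 1.76 and 1.65 CPM. Its KD libraries also lay above shNT and overlapped each other (2.40 ± 0.35, 5.26-fold, FDR = 0.0036, and 1.79 ± 0.28, 3.47-fold, FDR = 0.0099). With shGas41-1 all 3 calls held whichever library was left out. With shGas41-2 none held without either of its libraries (1.62 to 2.47, FDR = 0.063 to 0.32), and Pcdh10 was also lost with DESeq2 and without shNT replicate 2 or 3 (FDR = 0.097 and 0.086).

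The other δ-2 members did not reach the threshold. Pcdh19, mutated in a female-limited epilepsy, was at 0.359 to 0.747 CPM in shNT and at 0.855, 1.51 and 0.637 CPM with shGas41-1 (0.82 ± 0.39, FDR = 0.17). Pcdh18 had 1 to 3 counts in shNT and 5 to 10 in the KD libraries and was not tested. Of the δ-1 group only Pcdh1 passed the filter, at 6.82 to 12.9 CPM in shNT against 4.59 to 8.62 CPM with shGas41-1 and 6.76 to 8.14 CPM with shGas41-2, and it was not called (−0.47 ± 0.28 and −0.33 ± 0.25).

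Since the δ-2 genes include the protocadherins that moved with both shRNAs, their promoters are shown side by side. The 250 bases before the RefSeq start of each δ-2 gene (GRCm38.p6, printed 5′ to 3′ on the gene's own strand) are given with every CCAAT, or ATTGG on the other strand, in capitals. RefSeq promoter rows were at hand for 22 of the 60 members.
Pcdh8 (chr14:79771313-79771562, minus strand): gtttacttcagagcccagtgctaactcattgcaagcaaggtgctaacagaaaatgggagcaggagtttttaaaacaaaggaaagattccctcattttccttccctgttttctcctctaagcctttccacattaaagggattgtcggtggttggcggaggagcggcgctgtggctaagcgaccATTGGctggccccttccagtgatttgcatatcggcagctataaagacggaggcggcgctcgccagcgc
Pcdh10 (chr3:45378148-45378397, plus strand): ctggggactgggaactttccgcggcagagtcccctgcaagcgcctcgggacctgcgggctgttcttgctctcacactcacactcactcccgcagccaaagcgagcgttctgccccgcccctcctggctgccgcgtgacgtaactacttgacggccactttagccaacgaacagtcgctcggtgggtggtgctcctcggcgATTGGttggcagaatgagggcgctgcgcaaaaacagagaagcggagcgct
Pcdh17 (chr14:84443313-84443562, plus strand): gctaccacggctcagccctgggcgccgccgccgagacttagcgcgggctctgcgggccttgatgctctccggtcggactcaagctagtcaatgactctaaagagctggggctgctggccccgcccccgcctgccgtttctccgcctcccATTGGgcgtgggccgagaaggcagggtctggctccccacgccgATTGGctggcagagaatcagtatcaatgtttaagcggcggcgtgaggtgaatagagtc
Pcdh18 (chr3:49757317-49757566, minus strand): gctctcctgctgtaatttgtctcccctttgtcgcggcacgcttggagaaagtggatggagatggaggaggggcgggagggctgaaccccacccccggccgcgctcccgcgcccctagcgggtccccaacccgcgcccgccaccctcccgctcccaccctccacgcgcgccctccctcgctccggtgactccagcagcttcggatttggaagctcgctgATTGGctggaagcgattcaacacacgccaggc
Pcdh19 (chrX:133688994-133689243, minus strand): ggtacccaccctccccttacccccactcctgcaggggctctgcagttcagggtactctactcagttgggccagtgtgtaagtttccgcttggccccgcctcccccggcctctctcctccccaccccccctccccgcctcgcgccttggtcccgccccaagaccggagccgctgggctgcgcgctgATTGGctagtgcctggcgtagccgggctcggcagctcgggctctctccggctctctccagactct

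All 5 windows held the motif, always as ATTGG on the printed strand, with a match beginning 68, 50, 58, 32 and 65 bases before the start in the order shown and another in Pcdh17 at 101. This motif was chosen after the sequences had been read. It occurred on either strand in 33.8% of the 32851 RefSeq promoter windows of the same length, and in 15 of the 25 windows of the members. The 6-base E-box CACCTG or CAGGTG, which Snail and Zeb factors can bind, was in none of the 5 windows, in 3 of the 25 and in 17.2% of all windows. The TATAAA motif, searched on both strands, was in Pcdh8, in 2 of the 25 windows and in 12.4% of all. The 5 windows held 11, 22, 21, 23 and 16 CpG in the order shown, against a median of 6 over all windows (quartiles 2 and 16). The 5 include genes called and genes not called after KD, and a match of letters is no evidence of binding.

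Of the clustered protocadherin rows, 6 were tested with shGas41-1 and 7 with shGas41-2, and those that passed the FDR were lower. The deposited symbols need care here. The row named Pcdhga9 (chr18:37833989-38001527, mm9) covers 10 annotated transcripts of the γ cluster, and the row named Pcdha4 (chr18:37089939-37347311) covers 10 of the α cluster, so neither is a single isoform. A gene on the opposite strand overlaps 5.68% of the exon bases of the γ row and 11.3% of those of the α row, and the strand setting of the counting is not known. The γ row was at 91.5, 98.4 and 124 CPM in shNT, 66.1, 59.9 and 45.3 CPM with shGas41-1 and 70.9 and 72.8 CPM with shGas41-2. No KD library reached the lowest control, and the differences of −0.85 ± 0.17 (FDR = 0.012) and −0.53 ± 0.14 (FDR = 0.048) were under 2-fold and so not called. The α row was at 0.261 to 0.424 CPM in shNT and at 0.212 to 0.454 CPM in the KD libraries, and was not called (0.24 ± 0.34 and 0.06 ± 0.45, the second turning to −0.02 with library size alone). Of the 22 β genes, each essentially 1 exon, 4 were tested with shGas41-1 and 1 was called, Pcdhb14, which fell. It was at 0.571, 0.551 and 0.489 CPM in shNT, 0.0790, 0.102 and 0.261 CPM with shGas41-1 (−1.87 ± 0.45, FDR = 0.023) and 0.199 and 0.363 CPM with shGas41-2 (−0.92 ± 0.37, FDR = 0.15). The call was lost with a replicate block and without shGas41-1 replicate 1 or 2 or shNT replicate 2 or 3 (−1.56 to −1.95, FDR = 0.057 to 0.085). Pcdhb7 stood the other way, at 0.127 to 0.261 CPM in shNT and 0.356 to 0.500 CPM in the KD libraries, without being called (FDR = 0.076 and 0.15). Pcdhb17 and Pcdhb22 were not called.

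The shRNAs were also compared with each other in a fit over the 8 libraries. None of the 30 members tested was called, nor was any of all 19146 genes (0%), whereas 1348 genes had an unadjusted p under 0.05. Among the members these were 3: Cdh3, Cdh6 and Cdh9. The smallest p was that of Cdh9, which was 1.09 ± 0.24 higher with shGas41-1 (FDR = 0.28), and DESeq2 called it (FDR = 0.033). For Cdh17 the difference was 0.05 ± 0.36 and for Pcdh8 0.07 ± 0.31. The difference of Yeats4 was −0.94 on the log2 scale (FDR = 0.20).

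To follow the family through differentiation, EB day 6 was compared with day 0. Of the 60 members 42 were tested, and 24 were called higher and 4 lower at EB day 6 than at day 0. Over all 18287 genes, 16.6% were called higher and 14.7% lower. The median log2 fold change of the tested members was 1.53, against −0.003 over all genes. Both day 6 libraries lay above both day 0 libraries for 29 of 42 members (42.2% of all genes) and below for 7 (40.3%). By group, 8 of 8 tested type II cadherins, 9 of 11 tested non-clustered protocadherins, 2 of 5 type I cadherins, 1 of 3 other cadherins and 4 of 15 clustered rows were called higher. Several members called higher passed the filter only with their EB day 6 counts. These were Cdh6, Cdh10, Cdh18, Cdh20, Pcdh7, Pcdh11x, Pcdh12, Pcdh18, Pcdh20, Pcdhb3 and Pcdhb11. Such members could hardly be called lower, so the shares and the median are partly set by the filter. Of these 24 calls, 13 held whichever library was left out, and all 11 others were lost without EB day 0 replicate 3. None of the 4 lower calls held. The 18 members not tested had at most 19 counts (Pcdhb20).

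E-cadherin was not called, whereas N-cadherin and R-cadherin rose. Cdh1 was at 388 and 344 CPM at day 0 and at 605 and 473 CPM at day 6, which passed the FDR but not the fold threshold (0.54 ± 0.14, FDR = 0.014). N-cadherin went from 1.91 and 2.85 CPM to 108 and 272 CPM (6.31 ± 0.51, 79.3-fold, FDR = 0.00012). Per kilobase, Cdh2 was at 0.279% and 0.470% of Cdh1 at day 0 and at 10.1% and 32.7% at day 6, so the replicates differed in this ratio while Cdh1 remained the higher in both. R-cadherin went from 2.47 and 2.91 CPM to 17.5 and 28.0 CPM (3.06 ± 0.25, FDR = 0.00013). P-cadherin was lower at day 6, at 19.3 and 15.2 CPM against 23.4 and 29.7 CPM, without reaching 2-fold (−0.64 ± 0.17, FDR = 0.016). M-cadherin was called lower on few reads, with 22 and 25 counts at day 0 and 7 and 6 at day 6 (−1.77 ± 0.50, FDR = 0.021). That call was lost whichever library was left out (−1.95 to −1.58), and with DESeq2 and glmTreat.

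Cdh6, Cdh10, Cdh18 and Cdh20 passed the filter only with their day 6 counts and could hardly have been called lower. With that limit, every tested type II cadherin was called higher. The largest change among them was that of Cdh11, a mesenchymal and osteoblast cadherin, from 0.774 and 0.621 CPM to 95.9 and 218 CPM (7.78 ± 0.50, 220-fold, FDR = 5.06e-05). At 37.2 CPM per kb on average Cdh11 was the second member after Cdh1 (118 CPM per kb) at day 6, with a range that overlapped that of Cdh2 (23.6 CPM per kb). Per kilobase of the longest transcript Cdh2 was at 39.3 and Cdh11 at 37.2 CPM per kb, so their order turned with the length used. Cdh10 went from 0.120 and 0.152 CPM to 6.13 and 4.33 CPM (5.24 ± 0.34). Cdh20, of the neural tube, went from 0.107 and 0.0606 CPM to 1.12 and 4.10 CPM (4.89 ± 0.79), with replicate 3 at 3.67 times replicate 2. Cdh6 went from 0.0800 and 0.106 CPM to 0.740 and 1.73 CPM (3.69 ± 0.59), and Cdh22 from 0.147 and 0.167 CPM to 1.06 and 1.10 CPM (2.76 ± 0.37). In shNT, also undifferentiated control cells, Cdh22 was at 0.539 to 1.07 CPM, which reached the EB day 6 range. Cdh18, with 3 and 3 counts at day 0 and 26 and 18 at day 6, rose by 2.89 ± 0.60. Cdh9 rose by 1.36 ± 0.41 (FDR = 0.027) and Cdh24, which overlaps an antisense gene over 10.4% of its exons, by 1.29 ± 0.18. Without EB day 0 replicate 3 the calls of Cdh6, Cdh9, Cdh18 and Cdh20 were lost (FDR = 0.064 to 0.14), and without EB day 0 replicate 2 those of Cdh9 and Cdh18 were (FDR = 0.14 and 0.059). Cdh9 was also lost without EB day 6 replicate 2 (0.89, FDR = 0.17).

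Of the other cadherins, T-cadherin rose from 0.240 and 0.424 CPM to 6.55 and 6.87 CPM (4.32 ± 0.30, 20.0-fold). Cdh23 fell from 1.20 and 0.909 CPM to 0.121 and 0.394 CPM (−2.05 ± 0.54, FDR = 0.017), a call lost without either day 0 library (FDR = 0.11 and 0.12). Cdh17, which led the KD changes, had 13 and 12 counts at day 0 and 3 and 12 at day 6 and was not called (−0.66 ± 0.70). Cdh5 did not pass the filter, with 12 and 5 counts at day 0 and 8 in each library at day 6, and of the other endothelial markers Kdr was higher (3.76) and Pecam1 (−4.31) and Tek (−3.43) were lower.

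Of the non-clustered protocadherins 9 of 11 tested rose, and Pcdh7 had the largest log2 fold change of all tested members. Pcdh7 (chr5:58109260-58520590, plus strand, mm9), a δ-1 protocadherin, had 2 and 4 counts at day 0 and 2876 and 6853 at day 6. It thus went from about the detection floor to 43.4 and 104 CPM (10.67 ± 0.71, FDR = 5.79e-05). Pcdh18 went from 0.147 and 0.0909 CPM to 18.5 and 29.8 CPM (7.61 ± 0.38, FDR = 2.09e-05). Pcdh8 went from 0.213 and 0.167 CPM to 25.9 and 39.2 CPM (7.38 ± 0.31, 166-fold, FDR = 1.21e-05). Pcdh1, the most abundant non-clustered protocadherin in mESCs, went from 8.92 and 10.7 CPM to 129 and 93.7 CPM (3.49 ± 0.18). Pcdh11x and Pcdh12, a protocadherin of endothelium and trophoblast, were at 0 counts in both day 0 libraries. Against the floor of 3 counts per library Pcdh11x, with 39 and 34 counts at day 6, was at least 11.4-fold higher, and Pcdh12, with 11 and 29 counts, at least 6.21-fold higher.

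The lesser changes were those of Pcdh19, from 0.974 and 0.864 CPM to 2.94 and 6.46 CPM (2.33 ± 0.40), of Pcdh20, from 2 and 0 counts to 27 and 18 (4.40 ± 0.90), and of Pcdh17, from 0.494 and 0.576 CPM to 1.12 and 1.77 CPM (1.41 ± 0.35, FDR = 0.013). Without EB day 0 replicate 3 the calls of Pcdh12, Pcdh17, Pcdh19 and Pcdh20 were lost (FDR = 0.058 to 0.10), and Pcdh17 was lost without EB day 0 replicate 2 or EB day 6 replicate 3 as well (FDR = 0.094 and 0.056). Pcdh10 was at 0.120 and 0.152 CPM against 0.574 and 0.242 CPM and missed the threshold (1.56 ± 0.59, FDR = 0.057), except without EB day 6 replicate 3. Pcdh9 was tested and not called.

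Of the protocadherin arrays the α row rose, the γ row was not called and the β genes were divided. The α row went from 0.480 and 0.606 CPM to 5.42 and 4.09 CPM (3.11 ± 0.28, 8.64-fold, FDR = 0.00018). The γ row went from 105 and 96.1 CPM to 158 and 194 CPM (0.79 ± 0.12, FDR = 0.0015), which was under 2-fold. Of the 22 β genes 13 were tested, 3 were called higher and 2 lower. Pcdhb3 and Pcdhb11, both called higher, passed the filter only with their EB day 6 counts. Pcdhb22 went from 0.574 and 0.667 CPM to 1.15 and 2.18 CPM (1.40 ± 0.39, FDR = 0.020), Pcdhb3 from 2 and 4 counts to 23 and 12, and Pcdhb11 from 3 and 6 counts to 26 and 21. Pcdhb14 fell from 0.627 and 0.439 CPM to 0.166 and 0.136 CPM (−1.83 ± 0.46, FDR = 0.013), and Pcdhb7 from 11 and 20 counts to 4 in each library (−1.87 ± 0.66, FDR = 0.045). All 5 β calls were lost without either EB day 0 library (FDR = 0.054 to 0.18), Pcdhb7 also without either EB day 6 library, Pcdhb3 without EB day 6 replicate 2 and Pcdhb22 without EB day 6 replicate 3 (FDR = 0.099 to 0.16). DESeq2 called neither Pcdhb3 nor Pcdhb7, and Pcdhb7 was also lost with no filter on low counts and with a replicate block. The β genes share between 0% and 12.0% of their 50-base exon words with other genes, so their counts are uncertain to that extent.

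The day 6 replicates differed from each other for several members. Replicate 3 was at 2.52 times replicate 2 for Cdh2, 2.27 times for Cdh11, 2.39 times for Pcdh7 and 2.33 times for Cdh6, and at 0.781 times for Cdh1, 0.787 times for Cdh3 and 0.727 times for Pcdh1. In the same libraries the endoderm markers summed to 154 CPM in replicate 3 and 60.0 CPM in replicate 2, and the mesoderm and primitive streak markers to 1803 and 1258 CPM. Their part in this difference was not tested.

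KD and EB changes were then set side by side for the 11 members called with shGas41-1, using different control libraries. Of these 11, 7 were also called higher at EB day 6: Cdh4, Cdh6, Cdh9, Cdh10, Cdh13, Pcdh8 and Pcdh17. None was called lower, and Cdh5 did not pass the filter in EBs. The 7 are 63.6% of that list and 29.2% of the 24 EB calls. Of all 42 members tested in EBs 57.1% were called higher. The base of the 63.6% also holds Cdh5, which was not tested in EBs, so these shares have unlike bases. No difference between them was tested. The share among all genes called with shGas41-1 was not computed. Levels differed in both directions. For Cdh4, Cdh6, Cdh10, Cdh13 and Pcdh8 both EB day 6 libraries were above all 5 KD libraries; Pcdh8, for example, was at 0.490 to 0.737 CPM in KD cells and at 25.9 to 39.2 CPM at EB day 6. For Cdh3, Cdh5 and Cdh17 all 5 KD libraries were above both EB day 6 libraries, and for Cdh9, Pcdh10 and Pcdh17 the ranges overlapped. These levels were not tested against each other.

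Some neighbouring members were called together, whereas others were not called or were not tested. Of the members 28 lie on chromosome 18, 8 on chromosome 8 and 5 each on chromosomes 14 and 15. On chromosome 15 the type II genes Cdh6, Cdh9, Cdh10, Cdh12 and Cdh18 follow one another at gaps of 959 to 3604 kb. The first 3 were called with shGas41-1, and the last 2 did not pass the filter and so cannot be compared. At EB day 6 Cdh6, Cdh9, Cdh10 and Cdh18 were called higher, and Cdh12 did not pass the filter. On chromosome 14 Pcdh8 and Pcdh17, 4672 kb apart, were called with both shRNAs, and their neighbours Pcdh20 and Pcdh9 did not pass the filter. At EB day 6 Pcdh8, Pcdh17 and Pcdh20 were called higher, and Pcdh9 was tested and not called. On chromosome 8 Cdh11 and Cdh5 are neighbours 1317 kb apart, and Cdh5 was called after KD, where Cdh11 was not, and Cdh11 at EB day 6, where Cdh5 did not pass the filter.

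No intracellular partner of classical cadherins was called after KD. Of 12 catenin and adaptor genes 10 were tested with each shRNA. β-catenin (Ctnnb1) was at a mean of 748 CPM in shNT, 701 with shGas41-1 and 743 with shGas41-2, α-catenin (Ctnna1) at 327, 231 and 288 CPM, and p120-catenin (Ctnnd1) at 266, 189 and 233 CPM. Mllt4 (afadin) alone passed the FDR, with shGas41-2 (−0.63, FDR = 0.042). At EB day 6, 3 of 11 tested were higher (Ctnna2 by 2.19, Ctnnd2 by 2.24 and vinculin, Vcl, by 1.31) and plakoglobin (Jup) was lower (−1.20).

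Of the transcriptional repressors of Cdh1, Snai1 alone was called higher after KD, and the list as a whole did not rise. Of 8 tested, 2 passed the FDR as higher with each shRNA, and 1 as lower with shGas41-1. Summed, the list was at 93.3 to 125 CPM in shNT, 63.3 to 101 with shGas41-1 and 89.8 to 92.9 with shGas41-2. Snai1 was at a mean of 3.02 CPM in shNT, 6.30 with shGas41-1 (1.08, FDR = 0.038) and 6.36 with shGas41-2 (1.08, FDR = 0.032), the only 1 of 8 tested repressors called with either shRNA. At EB day 6 Snai1 (4.48), Twist1 (3.86), Twist2 (6.04) and Zeb2 (4.68) were called higher and Snai2 lower (−2.18) of 9 tested. Of the 6 proteases that process or shed cadherins, the proprotein convertase Furin was at 67.8 CPM in shNT, 198 with shGas41-1 (1.58, FDR = 0.0030) and 209 with shGas41-2 (1.63, FDR = 0.0015), and Mmp14 was lower with shGas41-1 (−1.14, FDR = 0.0096); none of the 6 reached 2-fold in EBs, where all 6 passed the FDR as higher (0.35 to 0.97).

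Other cadherin superfamily genes moved in both directions after KD. Of the desmosomal cadherins only Dsg2 and Dsc2 of 9 were tested, and Dsg2 fell from a mean of 46.0 CPM in shNT to 14.3 with shGas41-1 (−1.66, FDR = 0.0030) and 20.9 with shGas41-2 (−1.13, FDR = 0.011), whereas at EB day 6 Dsc2 was higher (2.53). Of 17 further superfamily genes 11 were tested with each shRNA. The photoreceptor cadherin Cdhr1 was higher with both (2.52 and 1.24), calsyntenin-3 (Clstn3) was lower with both (−1.46 and −1.05), and the planar polarity cadherin Celsr1 was lower with shGas41-1 (−1.53, FDR = 0.011). At EB day 6, 5 of 12 tested were higher, among them Fat3 (9.14), Fat4 (4.06) and Dchs1 (3.39), and Fat2 was lower (−3.10). Of 10 nectins and other epithelial adhesion genes none was called with either shRNA, and 4 were higher at EB day 6: Cldn6 (3.64), Cldn7 (4.08), Epcam (1.77) and Ocln (1.60). Of 13 regulators of the protocadherin arrays, including the insulator protein CTCF and the cohesin subunits, none was called after KD, and Ctcf was at 228, 212 and 215 CPM. At EB day 6 Dnmt3b (3.49), Smchd1 (1.32) and Stag2 (1.61) were called higher.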

How the data were processed

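mRNA of 12 libraries (TruSeq kit) was sequenced by the authors, who mapped reads to mm9 with TopHat2 2.0.10 and counted them per gene with HTSeq; the strand setting is not given in the sources used here. The 3 deposited tables hold raw counts per gene, which were used, and the authors' own fold changes and p-values, which were not; every gene listed has at least 1 read in its table, and members missing from a table were taken as 0. The 15 ChIP-seq samples were not analysed here.

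Genes passing filterByExpr (minimum count 10, total 15) were scaled by TMM and tested with glmQLFTest in edgeR 4.0.16 (R 4.3.3), with Benjamini-Hochberg FDR over all genes tested. Levels are CPM over the 12 libraries scaled together, or CPM per kilobase of the union of exons in GENCODE vM1, where 26910 of 27080 gene IDs and all 60 members were found. SE is that of the unshrunk fold change. Simulated data with 200 changed genes were used to test the procedure. Of genes changed by 2 on the log2 scale 100% were found with shGas41-1, 88.2% with shGas41-2 and 94.6% in EBs. Of genes changed by 1.5 on that scale 77.5%, 82.5% and 75.6% were found in the same order. False calls made up 3.85%, 7.61% and 6.04% of all calls.

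The members and gene lists were chosen with earlier results of these data known. Named were the type I cadherins, every other cadherin or non-clustered protocadherin called against controls, the 3 most abundant and up to 5 most changed called genes of each cluster, and of the other lists the called genes and up to 4 of the most abundant. Alternatives covered scaling, filter, test (DESeq2 1.42.0 and glmTreat), threshold, pairing, halved counts and left-out libraries. CPM floors cover counting error only.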

Additional observations from a re-analysis of the deposited data

How the results depend on the processing

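No called member changed direction under any alternative run. Called higher with shGas41-1 were 11 members, with 8 to 12 when 1 library was left out, and 5 when glmTreat tested against a 2-fold change; called lower was 1, with 0 to 1 when 1 library was left out, 0 with glmTreat, 0 with the replicate block and 2 with the FDR alone or a 1.5-fold threshold. With shGas41-2 there were 8 higher, with 1 to 8 when 1 library was left out (3 without shGas41-2 replicate 1, 1 without replicate 2, where the lone sample is assumed to vary like the other group, and 5 without shNT replicate 2) and 0 with glmTreat, which over all genes called 7 higher; 1 was lower with the FDR alone. In EBs 24 were higher, with 13 (without EB day 0 replicate 3) to 22 when 1 library was left out, and 18 with glmTreat; 4 were lower, with 0 to 2 when 1 library was left out, 2 with DESeq2 and 0 with glmTreat. Between shRNAs DESeq2 called 1 member (Cdh9), and with shGas41-1 it called 12 higher, adding Cdh2. Whether same-numbered libraries shared more than a number is not known. Their deviations correlated at 0.005, 0.14 and −0.39 with shGas41-1, 0.34 and 0.24 with shGas41-2, and 0.055 in EBs. Even counts from 1 to 20 outnumbered odd ones 1.09 to 1.10 times in replicate 1 of shNT, shGas41-1 and shGas41-2. All other libraries were at 1.01 to 1.05. A replicate block gave 8 members higher with shGas41-1, 9 with shGas41-2 and 24 higher and 3 lower in EBs. With shGas41-2 it called 1122 of all genes higher, against 728 without it. The longest transcript in place of the exon union moved 43 of 180 levels per kilobase by more than their SD. The causes were not tested.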
